A study of Rattus norvegicus with 12 samples.

Results

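The 8 genes described here mark glial progenitors or glioma stem cells, and are 8 of the 12978 genes with a named probe on the array. They were measured in rat glioma tumors grown in mice and treated with a derivative of fenoterol, an agonist of beta-adrenergic receptors. They are the transcription factors Olig1, Sox2, Sox4, Sox10 and Sox11, the intermediate filament nestin (Nes), the hyaluronan receptor Cd44 and the chondroitin sulfate proteoglycan NG2 (Cspg4). The genes were taken by their symbol in the platform annotation, and each had exactly 1 probe. Whole-tumor RNA of 12 subcutaneous xenografts of C6, an established rat glioma cell line, was hybridized to Illumina RatRef-12 arrays. The hosts were athymic female nude mice (SWISS nu+/nu+), inoculated in the left flank with 100 µl of a cell suspension. From day 3, 6 mice received (R,R')-4-methoxy-1-naphthylfenoterol (MNF, 2 mg/kg) by intraperitoneal injection on 5 days a week for 19 days. The other 6 received the vehicle, 100 µM ascorbic acid in saline, which the MNF group also received as solvent. Each group held 3 tumors of a first cohort of animals (tumors 1 to 3) and 3 of a second (tumors 4 to 6). Host age was not given in the sources used here. All tumors came from 1 cell line, grew outside the brain and contain host mouse cells, and how far mouse RNA reached the rat probes was not tested.

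Olig1 is a basic helix-loop-helix factor of the oligodendrocyte lineage. Sox2 keeps neural stem cells undifferentiated, Sox4 and Sox11 belong to the SoxC group and act in neural progenitors, and Sox10 drives the specification and myelination of oligodendrocytes and Schwann cells. Nestin is the intermediate filament of neural stem cells, Cd44 binds hyaluronan in the matrix, and NG2 is a surface proteoglycan of oligodendrocyte precursors and pericytes. In gliomas these genes are widely used to describe cells that resemble glial precursors or that renew the tumor.

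The 12 arrays differed in brightness. The mean signal of an array ranged from 500 to 858 units in the MNF group (median 715) and from 708 to 1062 in the vehicle group (median 862), and MNF-treated tumor 1 was the dimmest of all. On the signals as deposited the median gene had a log2 change of -0.32, so signals were compared after Z-normalization, in which each array was centred and scaled over the probes detected on all arrays and kept in log2 units. The median of all 7620 genes and unnamed probes tested was then 0.0013. Of the 8 genes, 7 were detected on all 12 arrays, with a detection value of 0 on each. Sox11 was detected on 0 of 12 arrays at the threshold of 0.02. The 7 genes that passed the detection filter are described first. In whole tumors, fewer cells of a type and less RNA per cell cannot be told apart.

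The main question was whether the 8 genes differed between MNF-treated and vehicle-treated tumors. Olig1 had the most negative log2 change of the 8, -0.75, with Sox4 (-0.37) and Sox2 (-0.29) next. Cd44 (-0.12), Cspg4 (-0.060), Nes (0.072) and Sox10 (0.078) lay close to 0. None of the 7 measured genes passed limma with Benjamini-Hochberg adjustment at 0.05, and nor did any other gene (0 of 7620, 0% of those tested). At an unadjusted p under 0.05, 1 of the 7, Olig1, was lower with MNF, against 4.78% of all genes (364 of 7620 lower and 245 higher). Of the 7, 5 had a change below 0, against 49.8% of all genes, and their median change was -0.12. Z-normalization over all probes moved the split of all genes at an unadjusted p under 0.05 to 543 lower and 144 higher.

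**Figure D1:**
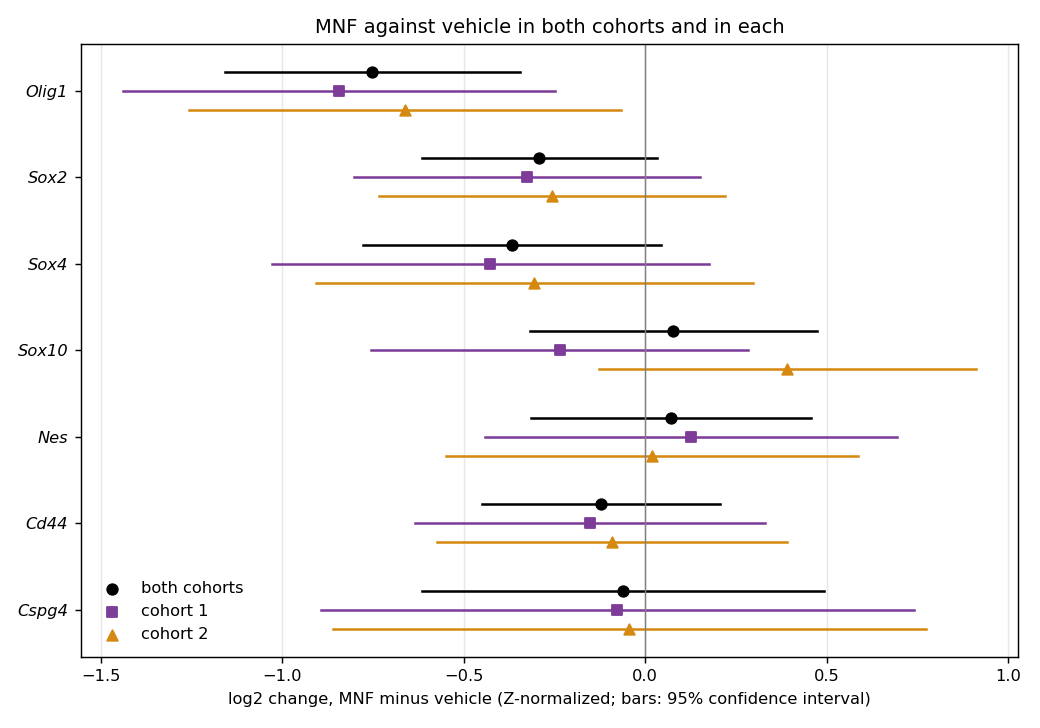
Log2 change of the 7 detected genes, MNF minus vehicle, over both cohorts (black circles), in cohort 1 (purple squares) and in cohort 2 (orange triangles), with 95% confidence intervals from limma, not adjusted for the number of genes, as bars. The intervals of Olig1 end below 0 in all 3 comparisons, from -1.16 to -0.35 over both cohorts, and those of the other 6 genes include 0.

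The signals of Olig1 in cohort 1 were 565.2, 765.2 and 1000.2 in the MNF-treated tumors 1 to 3. In the vehicle-treated tumors 1 to 3 they were 2036.4, 2171.4 and 1968.3. All 3 treated tumors lay below all 3 controls, with no overlap. On signals as deposited, that held for 61.3% of all genes in cohort 1, whose treated arrays were dimmer. After Z-normalization the treated tumors (-0.053 to 0.50) still lay below the controls (0.84 to 1.25), which held for 7.83% of all genes. Olig1 was the only one of the 7 genes with such a separation on the Z-normalized scale.

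In cohort 2, the signals of Olig1 were 1004.9, 1224.4 and 1178.3 in the MNF-treated tumors 4 to 6. The vehicle-treated tumors 4 and 6 gave 2265.6 and 2864.7, and vehicle-treated tumor 5 gave 1067.1. That control was the exception, since it lay among the treated tumors, whereas the other 5 controls lay above all 6 treated tumors. After Z-normalization, vehicle-treated tumor 5 (0.51) lay at the level of MNF-treated tumor 3 (0.50), and MNF-treated tumor 5 (0.92) lay above vehicle-treated tumor 1 (0.84).

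The mean Z-normalized log2 signal of Olig1 was 0.38 ± 0.32 (SD, n = 6) with MNF and 1.13 ± 0.44 (SD, n = 6) with vehicle. The log2 change was -0.75 (SE 0.19, 95% interval -1.16 to -0.35), a level 1.68-fold lower on this scale. Its limma adjusted p was 0.499. By size, it was the second lowest change of the 7620, after Nppb (-0.89), which encodes a natriuretic peptide and is named here after its value was seen, and it ranked 19 by p. In cohort 1 the change was -0.84 (SE 0.27, 95% interval -1.44 to -0.25, limma adjusted p = 0.652). In cohort 2 it was -0.66 (SE 0.27, 95% interval -1.26 to -0.067, limma adjusted p = 0.486). Olig1 was the 1 gene of the 7 that was lower at an unadjusted p under 0.05 in each cohort, against 3.69% of all genes in cohort 1 and 5.45% in cohort 2, where 0 of 7620 passed adjustment (0%). In cohort 2 that call held in 8 of 12 fits with 1 tumor left out. Of the MNF-treated tumors, leaving out tumor 4 (-0.57) or tumor 6 (-0.56) lost it, as did leaving out tumor 4 (-0.61) or tumor 6 (-0.37) of the controls, and the change was -1.01 without control tumor 5. It also held in 10 of 14 other settings, and was lost with array quality weights (-0.45), the muscle marker mean as a covariate (-0.67), the replicate block or cohort 2 fitted alone (both -0.66). Over both cohorts it lay between -0.92 and -0.63 with any 1 tumor left out, at an unadjusted p under 0.05 in all 12 fits. The study named Olig1 and Sox4 from these same arrays, so their direction here is not independent evidence. It also reported both lower with MNF in xenograft tumors by quantitative RT-PCR, which is not part of the data used here.

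**Figure D2:**
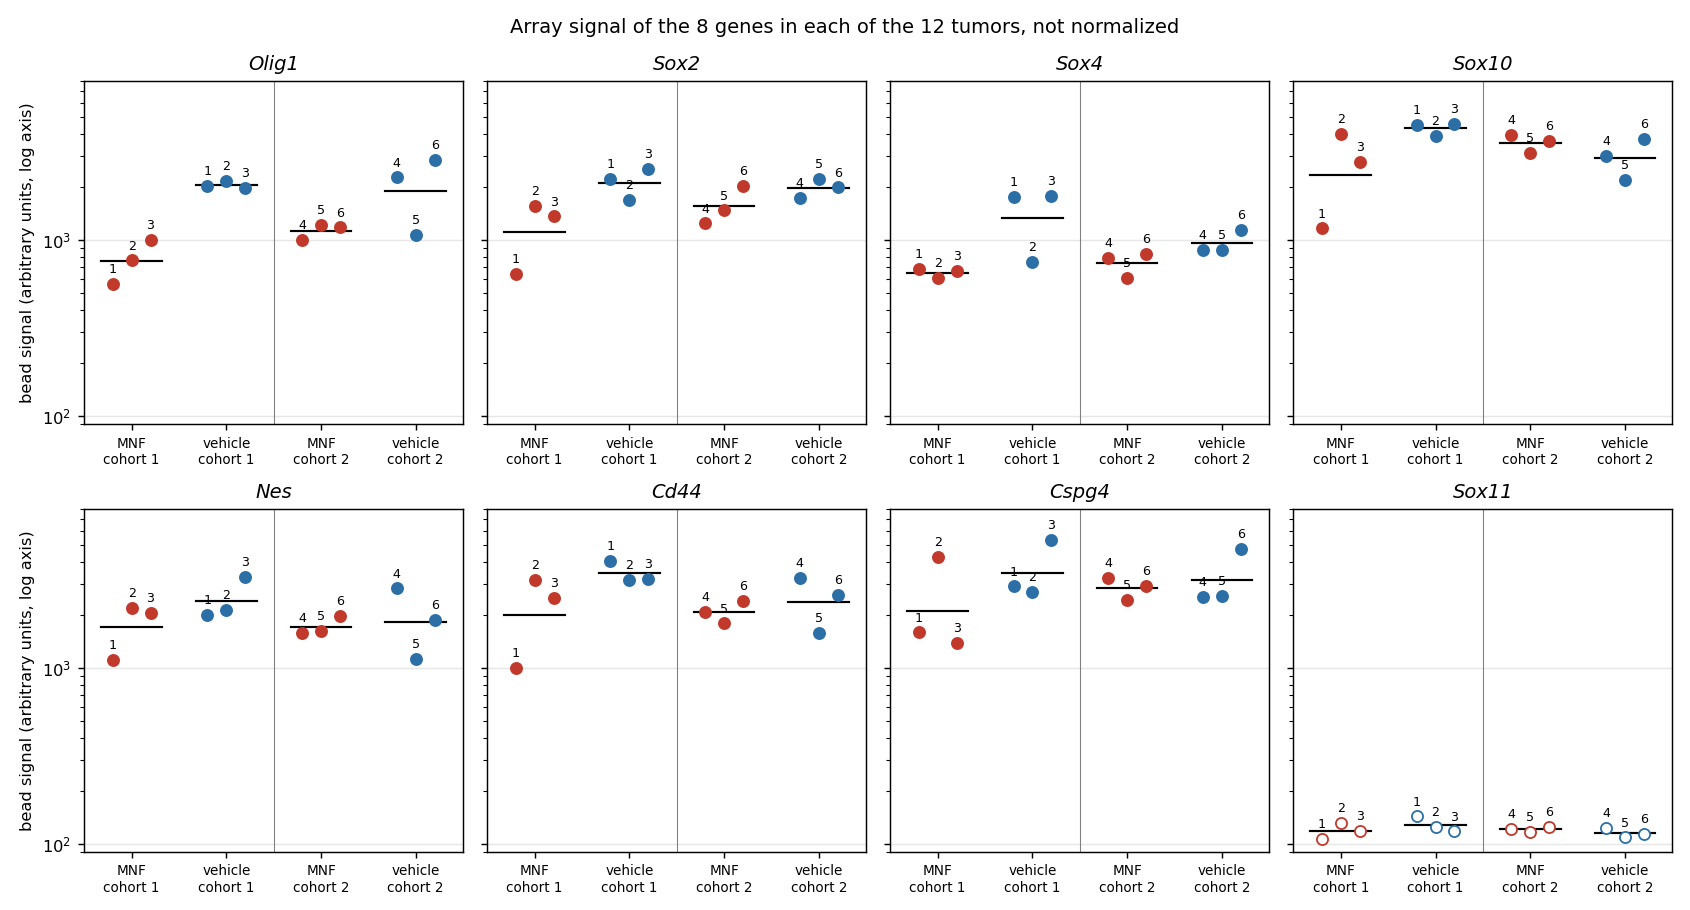
Signal of the 8 genes in each tumor on a log axis, as deposited and not normalized, with MNF in red and vehicle in blue, numbered by tumor. Black lines are geometric means of 3 tumors, and open circles (Sox11) mark signals not detected at a p under 0.02. For Olig1, 5 of the 6 vehicle-treated tumors lie above all MNF-treated tumors, with vehicle-treated tumor 5 at 1067.1 as the exception.

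Sox4, a SoxC factor of progenitor cells that is also a target of TGF-beta signaling, gave signals of 686.1, 609.8 and 666.1 in the MNF-treated tumors 1 to 3. The vehicle-treated tumors 1 to 3 gave 1749, 747.2 and 1780.3, so tumors 1 and 3 stood apart from tumor 2. In cohort 2 the MNF-treated tumors gave 793.5, 611.8 and 834.3, and the vehicle-treated tumors 876.2, 877.2 and 1142.9. On these signals the groups did not overlap in either cohort, as for 61.3% of all genes in cohort 1 and 5.39% in cohort 2. After Z-normalization they overlapped in both, with MNF-treated tumor 1, the dimmest array, at 0.50 and vehicle-treated tumor 2 at -0.27. Means were -0.037 ± 0.29 (SD, n = 6) with MNF and 0.33 ± 0.44 (SD, n = 6) with vehicle. The log2 change of Sox4 was -0.37 (SE 0.19, 95% interval -0.78 to 0.044, limma adjusted p = 0.676). Cohort 1 gave -0.43 and cohort 2 gave -0.31. It was -0.25 without vehicle-treated tumor 3 and -0.51 without vehicle-treated tumor 2, the latter at a limma adjusted p of 0.878.

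Sox2, the stem cell factor, gave signals of 641, 1568.4 and 1360.3 in the MNF-treated tumors of cohort 1 and 2214, 1688.5 and 2535.1 in its controls. In cohort 2 they were 1242.2, 1471.7 and 2036.1 with MNF and 1733.7, 2218 and 1989.2 with vehicle. The signals of cohort 1 did not overlap between groups, like those of 61.3% of all genes, and those of cohort 2 did, MNF-treated tumor 6 being above 2 of the 3 controls. After Z-normalization the groups overlapped in both cohorts. Means were 0.88 ± 0.30 (SD, n = 6) with MNF and 1.18 ± 0.29 (SD, n = 6) with vehicle. The log2 change was -0.29 (SE 0.15, 95% interval -0.62 to 0.032, limma adjusted p = 0.674). Cohort 1 gave -0.33 and cohort 2 gave -0.26. Without MNF-treated tumor 1, the lowest for Sox2, it was -0.20. Without vehicle-treated tumor 4 it was -0.37 (limma unadjusted p = 0.029, adjusted p = 0.626).

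**Figure D3:**
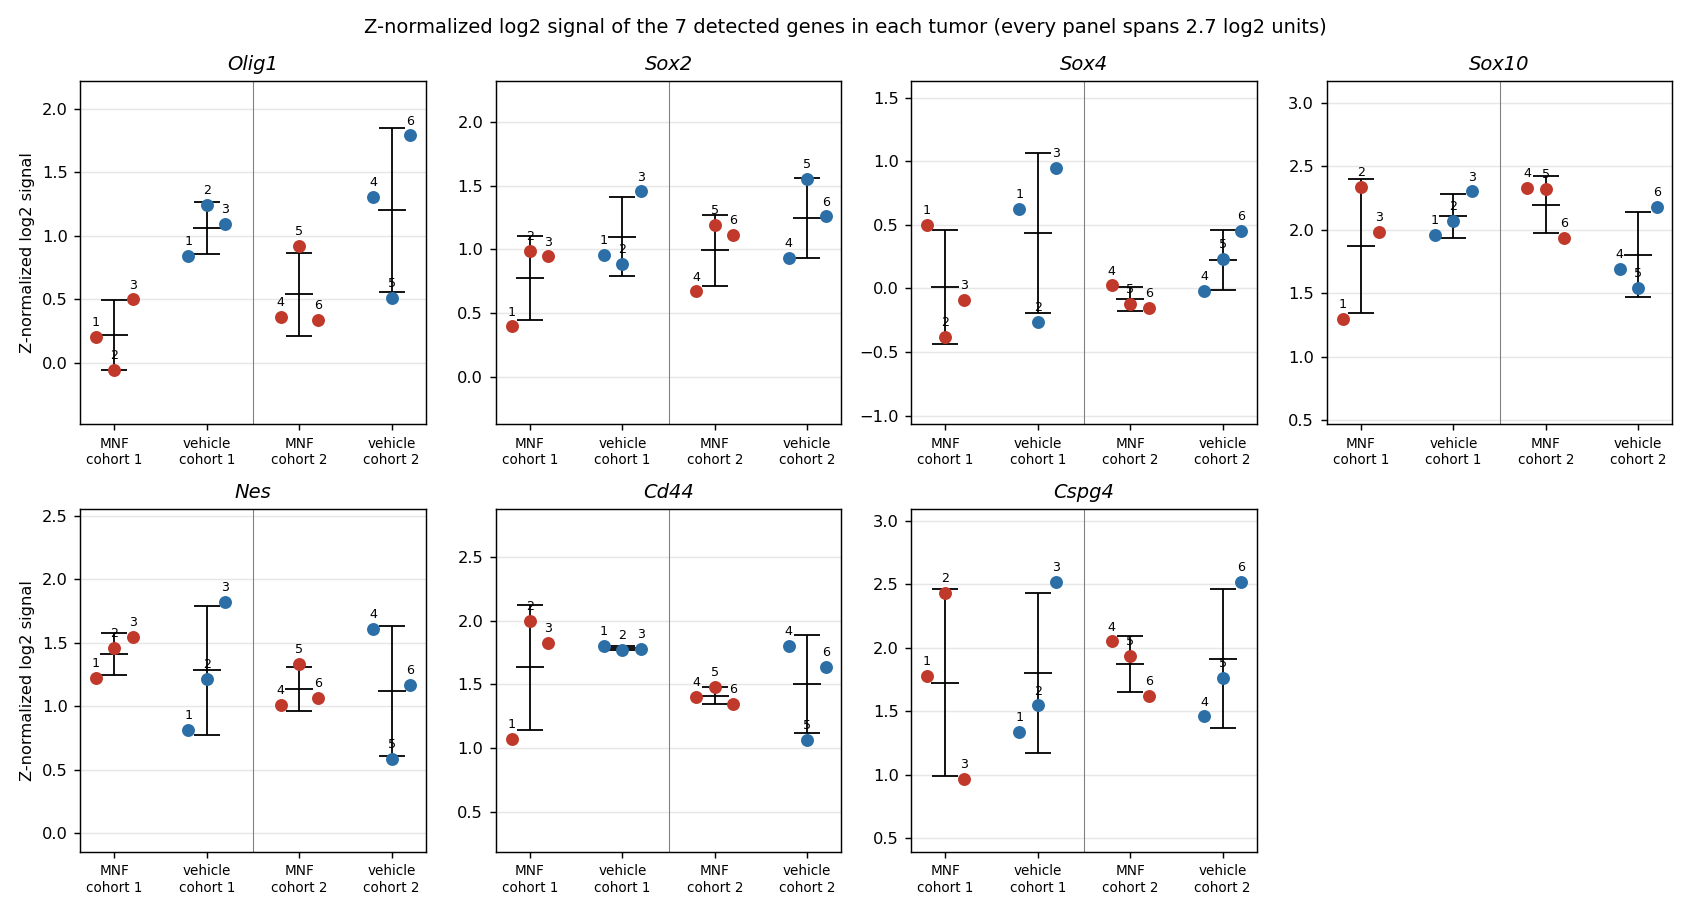
Z-normalized log2 signal of the 7 detected genes in each tumor, numbered, with MNF in red, vehicle in blue and the mean and SD of 3 tumors in black. Every panel spans the same range of log2 units, and only Olig1 in cohort 1 shows treated and control tumors that do not overlap.

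Sox10 showed the opposite arrangement in the 2 cohorts, without passing the test of the difference. In cohort 1 its signals were 1162.6, 3992.7 and 2788.6 with MNF and 4515.9, 3887.2 and 4561.3 with vehicle. In cohort 2 they were 3938.6, 3126.4 and 3638.7 with MNF and 2999.5, 2193 and 3750.8 with vehicle. MNF-treated tumor 1 was the lowest of the 12 and vehicle-treated tumor 5 the next lowest, and the groups overlapped in both cohorts. The log2 change of Sox10 was -0.24 (SE 0.24) in cohort 1 and 0.39 (SE 0.24) in cohort 2, and the difference between cohorts was 0.63 (SE 0.34, 95% interval -0.11 to 1.36, limma adjusted p = 0.561). Leaving out MNF-treated tumor 1 turned the change in cohort 1 to 0.053 and brought the difference to 0.34. Over both cohorts the change was 0.078 (SE 0.18, 95% interval -0.32 to 0.47), and it was -0.016 without vehicle-treated tumor 5. The change of sign was not particular to Sox10. Cnp, one of the genes most like it, gave -0.57 in cohort 1 and 0.47 in cohort 2. The median of the 4 measured Schwann cell markers was -0.25 in cohort 1 and 0.38 in cohort 2.

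Sox11, the SoxC relative of Sox4, was not detected in any tumor. Its signals were 106.7, 131.3, 117.8, 121, 116.3 and 124.2 in the MNF-treated tumors and 143, 124.9, 117.5, 123.1, 108.6 and 113.1 in the vehicle-treated tumors. Detection p-values ran from 0.224 to 0.680, so the probe was not above background on any array, and no fold change was taken from it.

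Nestin, the filament of neural stem cells, gave signals from 1103.9 to 2174.8 with MNF (median 1795) and from 1125 to 3267.2 with vehicle (median 2062). The control range was wide, from vehicle-treated tumor 5, the lowest control, to vehicle-treated tumor 3, and it enclosed all but the lowest treated tumor. The log2 change of Nes was 0.072 (SE 0.18, 95% interval -0.31 to 0.46), with 0.13 in cohort 1 and 0.018 in cohort 2. It was -0.041 without vehicle-treated tumor 5 and -0.039 without vehicle-treated tumor 1.

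Cd44, the hyaluronan receptor, gave signals from 1001.1 to 3155.8 with MNF (median 2235) and from 1573.2 to 4042.4 with vehicle (median 3164). Among the 6 controls, 4 lay close together on the Z-normalized scale, from 1.77 to 1.81. Vehicle-treated tumor 5 (1.07) and MNF-treated tumor 1 (1.07) were the lowest of the 12, and the groups overlapped in both cohorts. The log2 change of Cd44 was -0.12 (SE 0.15, 95% interval -0.45 to 0.21), with -0.15 in cohort 1 and -0.091 in cohort 2. Without MNF-treated tumor 1 it was 0.0063 and without vehicle-treated tumor 5 it was -0.22.

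Cspg4, the proteoglycan of glial precursors, had the largest standard error of the 7 genes. Its signals ran from 1379.8 to 4247.1 with MNF (median 2665) and from 2530.6 to 5303 with vehicle (median 2790). The highest tumors on the Z-normalized scale were vehicle-treated tumors 3 and 6 (2.52 in each) and MNF-treated tumor 2 (2.43), and MNF-treated tumor 3 was the lowest (0.97). High tumors were thus present in both groups, and the groups overlapped in both cohorts. The log2 change of Cspg4 was -0.060 (SE 0.26, 95% interval -0.61 to 0.49), -0.076 in cohort 1 and -0.044 in cohort 2. It was 0.11 without MNF-treated tumor 3, 0.10 without vehicle-treated tumor 3, 0.073 without vehicle-treated tumor 6 and -0.22 without MNF-treated tumor 2.

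The second question was whether the effect of MNF differed between cohorts, and whether the cohorts themselves differed. No gene passed the adjusted threshold for the difference of effects (0 of 7620, 0% by limma), and of the 7 genes none had an unadjusted p under 0.05, against 9.33% of all genes. For Olig1 the difference was 0.18 (SE 0.39) and for Sox4 0.12 (SE 0.39), with 95% intervals of -0.66 to 1.02 and -0.73 to 0.97. These intervals are wide and do not show that the effects were alike. With treatment held, cohort 2 minus cohort 1 ranged from -0.25 for Cd44 (SE 0.15, limma adjusted p = 0.680) to 0.23 for Olig1 (SE 0.19, adjusted p = 0.754). None of the 7 had an unadjusted p under 0.05 between cohorts, against 7.65% of all genes (0 of 7620 after adjustment).

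Across the 12 tumors, with each cohort centred on its mean, some pairs of the 7 genes varied together and others did not. Pearson's r of the 21 pairs ranged from -0.27 (Sox4 and Cd44) to 0.65 (Sox10 and Cd44), and that of Olig1 with Sox4 was 0.37. These values are a description, since the tumors share arrays, treatment groups and cell line. Within treatment groups and cohorts, r of Olig1 with Sox4 was 0.0030 and that of Sox10 with Cd44 was 0.77. It was 0.57 for Olig1 with Nes and for Nes with Cd44, and 0.54 for Sox10 with Cspg4. The lowest was -0.46, for Sox4 with Cd44. For Sox10 with Cd44, r was 0.94 within the 6 MNF-treated tumors and 0.45 within the 6 vehicle-treated tumors, with cohorts centred. Without MNF-treated tumor 1 and vehicle-treated tumor 5, the lowest for both genes, it was -0.29 over the other 10 tumors.

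Sox10 had the closest neighbours among the named genes. The 3 genes most like it over the 12 tumors were Fmod (fibromodulin, a small leucine-rich matrix proteoglycan, r = 0.97), Cnp (an enzyme of myelin-forming glia, r = 0.97) and Col18a1 (a basement membrane collagen, r = 0.96). Without the 2 tumors farthest from the Sox10 median, r was 0.95, 0.92 and 0.90 over 10 tumors. It was also 0.93 or more within each treatment group of 6 for all 3 genes. These subsets are part of the 12 tumors used to pick the 3 genes, so they are not independent evidence. Over both cohorts, none of the 3 had a change with MNF beyond its error. It was 0.42 (SE 0.63) for Fmod, -0.046 (SE 0.29) for Cnp and 0.063 (SE 0.30) for Col18a1.

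**Figure D4:**
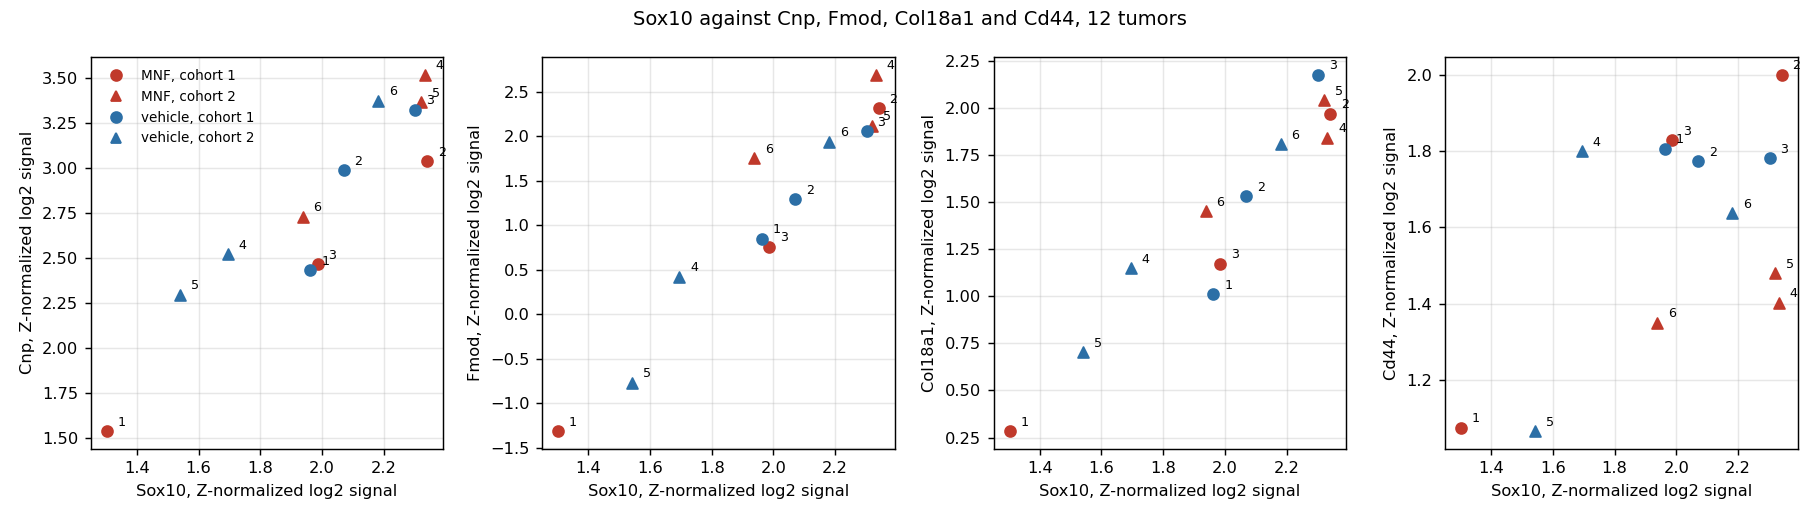
Z-normalized log2 signal of Cnp, Fmod, Col18a1 and Cd44 (vertical axes) against that of Sox10 (horizontal axis) in the 12 tumors, numbered, with MNF in red, vehicle in blue, circles for cohort 1 and triangles for cohort 2. The first 3 genes were picked for their high r with Sox10 and follow it over its whole range. For Cd44, r is 0.65 over all tumors, 0.94 within MNF and 0.45 within vehicle. It is -0.29 without MNF-treated tumor 1 and vehicle-treated tumor 5.

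The other genes had weaker neighbours. These were picked as the highest r among the 5510 named genes tested, and the subsets below hold tumors used for picking. How high the top r would reach among unrelated genes was not tested. The picks are therefore a description and not evidence of co-expression. The genes most like Olig1 were Vps33b (vesicle trafficking), Klhl24 (a kelch-like adaptor of a ubiquitin ligase) and Zcrb1 (an RNA-binding protein of the minor spliceosome), with r of 0.84, 0.83 and 0.83. Within the 6 MNF-treated tumors, r of Olig1 was 0.32 with Vps33b, 0.71 with Klhl24 and 0.24 with Zcrb1, and within the 6 vehicle-treated tumors it was 0.87, 0.75 and 0.86. For Sox2 the nearest were Ppp4r1, Habp4 and Tspan14 (0.88, 0.88 and 0.86), and for Sox4 Ube2q1, Dpysl3, a collapsin response mediator of neurites, and Anks3 (0.86, 0.83 and 0.82). For Nes they were Prrg4, the transcription factor Ets1 and the syndecan Sdc4 (0.84, 0.83 and 0.83). Cd44 was nearest to Cnep1r1, the kinesin Kif5b and Rpe (0.91 each), and Cspg4 to Vps13d, Glg1 and the focal adhesion protein Tns1 (0.92, 0.91 and 0.89). Without the 2 tumors farthest from the member's median, r was 0.72 to 0.83 for Sox2, 0.76 to 0.92 for Sox4 and 0.67 to 0.70 for Nes. It was 0.66 to 0.88 for Cd44 and 0.83 to 0.92 for Cspg4. Vehicle-treated tumor 5 was among the 2 left out for Sox2, Nes and Cd44.

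The genes around the 8 factors were counted in lists, beside the 4.78% of all genes lower and 3.22% higher at an unadjusted limma p under 0.05, and none of their genes passed adjustment. Of 25 other genes of oligodendrocyte precursors, 5 were measured and all 5 lay below 0 (median -0.090), with 0 at an unadjusted p under 0.05. The 3 of smallest p were Sox6, which holds precursors undifferentiated (-0.27, SE 0.16), the proteoglycan Vcan (-0.20, SE 0.17) and the factor Nkx2-2 (-0.090, SE 0.21). Olig2, the partner of Olig1, was detected on 1 of 12 arrays, with signals of 126.8 to 172.8. Sox8 was detected on 11, and Bcan, Myt1 and Neu4 on 0. Among 15 other Sox genes only Sox6 and Sox14 were measured, with a change of 0.11 (SE 0.11) for Sox14.

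Of 32 genes of neural and glioma stem cells, 11 were measured, 7 below 0 and 4 above (median -0.063), and 0 had an unadjusted p under 0.05. The 3 of smallest p were the Polycomb methyltransferase Ezh2 (-0.26, SE 0.13), the transcription factor Stat3 (0.18, SE 0.10) and the integrin Itga6 (-0.21, SE 0.13). Prom1, which encodes CD133, and Gli1, Gli2, Pax6 and Nanog were detected on 0 of 12 arrays. Bmi1 was detected on 11, Hmga2 on 9 and Fabp7 on 2. In the Notch pathway, which holds progenitors undifferentiated, 12 of 29 genes were measured, 5 below 0 and 7 above (median 0.017). Hes6, a relative of the Notch targets that acts against Hes1, was the 1 gene at an unadjusted p under 0.05 (-0.33, SE 0.094, limma adjusted p = 0.499), and the ligand Jag1 (0.32, SE 0.19) and the receptor Notch1 (-0.28, SE 0.20) were not. In the TGF-beta pathway, 13 of 25 genes were measured, 8 below 0 and 5 above, with 0 at an unadjusted p under 0.05. Smad2 (-0.15, SE 0.074), the ligand Tgfb1 (-0.31, SE 0.20) and the latency protein Ltbp1 (-0.21, SE 0.18) had the smallest p.

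Of 23 ligands and partners of Cd44 and hyaluronan enzymes, 14 were measured, 8 below 0 and 6 above. Mmp14, a membrane protease that cleaves Cd44, was the 1 gene at an unadjusted p under 0.05 (-0.34, SE 0.15, limma adjusted p = 0.609), and the adhesion molecule Epcam (-0.28, SE 0.14) and the membrane linker Ezr (-0.28, SE 0.17) did not pass. The study named Mmp14 from these arrays. Of 15 ligands and partners of NG2, 11 were measured, 4 below 0 and 7 above, with 0 at an unadjusted p under 0.05, the scaffold Grip1 (0.19, SE 0.11), the galectin Lgals3 (0.40, SE 0.35) and the protease Plat (0.12, SE 0.11) having the smallest p. Of 13 nestin partners and intermediate filament genes, 6 were measured, 4 below 0 and 2 above. Nefm (0.13, SE 0.084), Prph (-0.19, SE 0.15) and the kinase Cdk5 (-0.073, SE 0.085) led by p, none of them at an unadjusted p under 0.05.

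Genes of mitosis and proliferation lay to one side of 0. Of 17 listed, 15 were measured, all 15 were below 0 (median -0.32) and 9 had an unadjusted p under 0.05, against 4.78% of all genes. The phosphatase Cdkn3 (-0.45, SE 0.10), the kinesin Kif23 (-0.44, SE 0.13) and the kinesin Kif20a (-0.46, SE 0.15) had the smallest p. The study named members of this list, such as Cdkn3, Ccna2 and Bub1b, from these arrays, so the direction is not independent evidence. By quantitative RT-PCR of xenograft tumors, it also reported Cdkn3, Ccna2 and Bub1b lower with MNF. The mean Z-normalized log2 signal of the list ran from 0.61 to 0.88 in the MNF group and from 0.72 to 1.37 in the vehicle group, and its r with Olig1 was 0.28 over the 12 tumors.

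**Figure D5:**
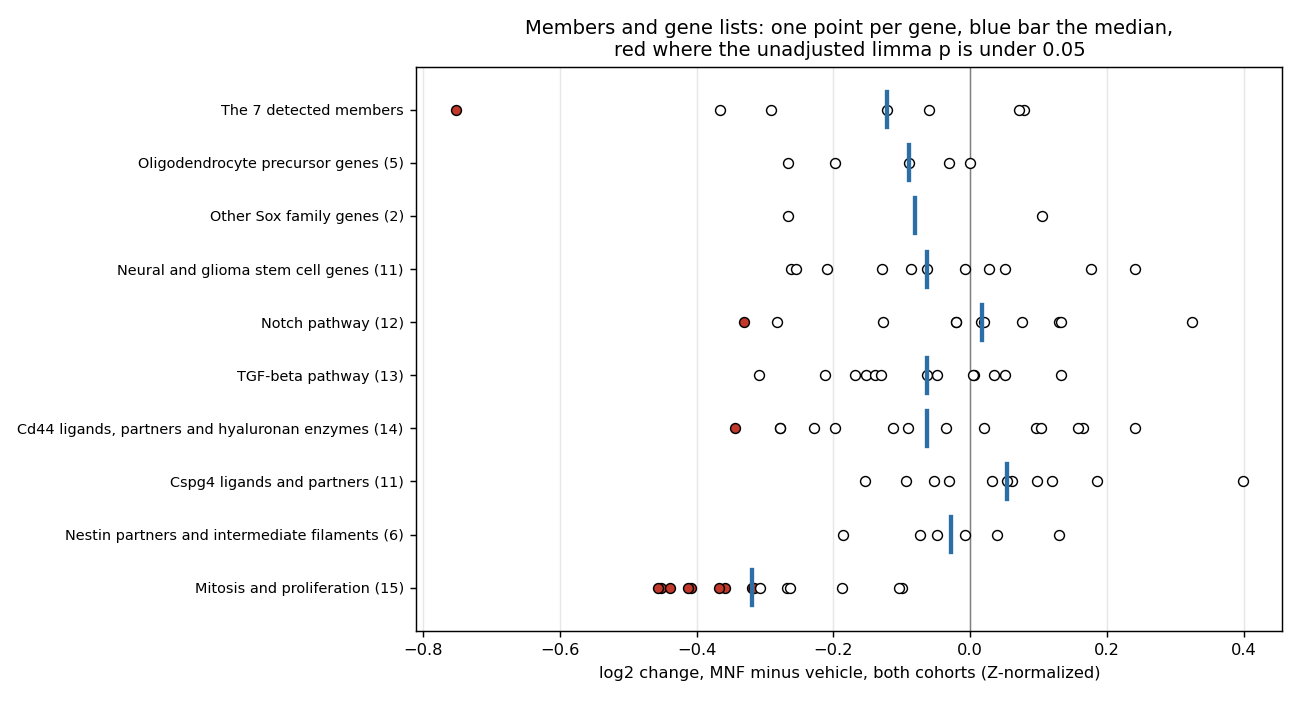
Log2 change over both cohorts, MNF minus vehicle, of the 7 detected genes and of the measured genes of 9 lists (number in parentheses), 1 point a gene, with the median as a blue bar and red points where the unadjusted limma p was under 0.05. Olig1 lies at -0.75, below every listed gene, and the mitosis list lies wholly below 0.

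The tumors were checked against markers of glia and of other cells. Of 12 astrocyte markers 4 were measured on all arrays, Aldoc, Gja1, Ndrg2 and S100b, with changes from 0.013 to 0.23 over both cohorts. Their median change was -0.15 in cohort 1 and 0.46 in cohort 2. Slc1a3 was detected on 11 arrays, Slc1a2 on 6, and Aqp4 and Sparcl1 on 0. Of 11 markers of myelinating oligodendrocytes only Cnp was measured. Mbp was detected on 9 arrays, Mag on 6, and Mog, Mobp and Opalin on 0. Of 9 Schwann cell markers 4 were measured, 3 above 0 and 1 below, led by p by Egr2 (0.21, SE 0.17), Erbb3 (0.19, SE 0.16) and Ngfr (-0.16, SE 0.30). The mean Z-normalized log2 signal of the 4 had an r of 0.88 with Sox10. None of 6 melanocyte markers was measured, with Mlana detected on 3 arrays, Tyrp1 on 2 and Tyr on 0. Of 10 neuron markers 2 were measured, Eno2 (0.24, SE 0.16) and Map2 (-0.071, SE 0.10).

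Among the measured markers of tissues around or within a tumor, only Myl1, Tnnc2 and Hbb had an unadjusted limma p under 0.05. None passed adjustment. Of 12 skeletal muscle markers 3 were measured, all above 0 with MNF. Myl1 (1.86, SE 0.79) and Tnnc2 (1.97, SE 0.88) had an unadjusted limma p under 0.05, and Acta1 (1.66, SE 1.08) did not. Ckm was detected on 8 arrays, Tnni2 and Tnnt3 on 10 each, Pvalb on 1, and Myh4, Mb and Actn3 on 0. The highest signals of Ckm, Tnni2 and Tnnt3 were 23963.6, 16148.6 and 20712.1 with MNF and 4083.2, 2476.3 and 3169.4 with vehicle. The mean Z-normalized log2 signal of the 3 measured markers ran from -1.75 to 5.51 in the MNF group and from -1.92 to 3.95 in the vehicle group. With this mean as a covariate, the log2 change of Olig1 was -0.77 (SE 0.22, limma unadjusted p = 0.0042, adjusted p = 0.889). That of Sox4 was -0.56 (SE 0.20, limma unadjusted p = 0.014, adjusted p = 0.914), and that of Cd44 turned to 0.062. Of 5 red blood cell markers 2 were measured. Hbb (1.29, SE 0.56) had an unadjusted limma p under 0.05, and Hba-a1 (0.80, SE 0.38) did not. The mean Z-normalized log2 signal of Hbb and Hba-a1 was 2.85 to 5.80 with MNF and 1.86 to 4.30 with vehicle. Hba-a2 was detected on 6 arrays and Alas2 on 0. The part of the red blood cell signal in the results was not tested. Of 12 macrophage markers only Cd14 (-0.13, SE 0.14) and Cd68 (0.15, SE 0.18) were measured, and Ptprc, Aif1, C1qa and Itgam were detected on 0. The mean Z-normalized log2 signal of Cd14 and Cd68, -0.73 to -0.16 with MNF and -0.73 to 0.066 with vehicle, was highest in vehicle-treated tumor 5. Among the controls, that tumor had the lowest Olig1, Sox10, Nes and Cd44 but the highest Sox2 (1.56). Its Sox4 (0.23) and Cspg4 (1.76) lay within the range of the other controls. Vehicle-treated tumor 5 also had the highest muscle mean (3.95) and mitosis mean (1.37) of the controls and their lowest Schwann cell mean (0.34). The part of these marker signals in that tumor's values was not tested. Of 9 endothelial markers Cldn5 (0.058, SE 0.10) and Esam (0.040, SE 0.12) were measured, with Tie1 detected on 7 arrays and Vwf, Cdh5 and Tek on 0. Of 12 pericyte and fibroblast markers 4 were measured, 3 above 0 and 1 below, led by p by Mcam (0.21, SE 0.14), Col3a1 (0.39, SE 0.37) and Col1a1 (-0.21, SE 0.26).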

How the data were processed

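Probe summaries were made by the authors with GenomeStudio, listed as version 1.6.0 by the submitters. The deposited table holds, for 22517 probes in 12 tumors, an intensity that was not normalized, with its detection p-value. A second deposited table, of Z scores for 11080 probes, matched log10 signals standardized on each array over all probes (largest difference 0.0124) and served as an alternative. The platform annotation named 13259 probes with 1 gene and left 9258 unnamed.

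Probes detected at a p under 0.02 on all 12 arrays were kept (7677). Log2 signals were centred and divided by the SD of each array over these kept probes, unlike the deposited scores, which take all probes, and multiplied by the mean SD (1.68). The brightest probe stood for a gene, leaving 7620 features (5510 named genes, 2110 unnamed probes). Levels of different probes were not compared. MNF was compared with vehicle by limma 3.58.1 in R 4.3.3 with cohort as covariate, and within cohorts by a model of 4 groups, with Benjamini-Hochberg adjustment over all features at 0.05. The fit was tested on simulated data. The z-test of the study was not repeated. The number of arrays, 3 per group and cohort, limits the precision.

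Groups and cohorts came from the labels, and tumors are taken as 1 animal each. The 8 genes, 19 gene lists and tests were chosen with earlier results of these data known. The named genes are the 8, the 3 of smallest p in each list, the 3 named genes with the highest r to each detected one, and markers given with their detection alone. Alternatives were other normalizations, filters, weights, covariates and blocks and leaving out each tumor. Signals with no normalization were added after seeing the data. No highly correlated pair of arrays (highest r 0.990) was a duplicate.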

Additional observations from a re-analysis of the deposited data

Results flagged for a closer look

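Among 73 named genes, each checked in the 6 MNF-treated and the 6 vehicle-treated tumors on the Z-normalized log2 scale, 3 of the 146 groups held 1 tumor far from the other 5, and chance alone marks about 1 in 20 groups. Cd44 was low in vehicle-treated tumor 5 (1.07, the other 5 from 1.64 to 1.81). Zcrb1, one of the genes most like Olig1, was low in the same tumor (1.53, the other 5 from 1.72 to 1.81). Gja1, the gap junction protein connexin 43, was high in MNF-treated tumor 6 (3.76, the other 5 from 2.82 to 2.92). No named gene had opposite, non-overlapping responses in the cohorts or an adjusted p under 0.05 for their difference by limma.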

How the results depend on the processing

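None of the 7 detected genes passed the adjusted threshold under any alternative, and Olig1, Sox2 and Sox4 kept a log2 change below 0 over both cohorts and in each under all of them. Over both cohorts Olig1 ranged from -1.10 without normalization to -0.72 with quantile normalization. In cohort 2 it had no unadjusted p under 0.05 with array quality weights (-0.45), the muscle score (-0.67), the replicate block or cohort 2 alone (both -0.66). Without normalization, added after seeing the data, the change over both cohorts was -0.29 for Sox10 and -0.29 for Nes, Nes was -0.50 in cohort 1 and -0.078 in cohort 2, and genes at an unadjusted p under 0.05 numbered 2158 over both cohorts, 4474 in cohort 1, 221 in cohort 2, 1385 for the difference and 107 between cohorts. With no filter on dim probes they numbered 1852, 4385 in cohort 1, 1562 for the difference and 939 between cohorts, the median change being 0.11 over both cohorts, and 1 gene passed adjustment in cohort 1. With the muscle score they numbered 400 over both cohorts and 295 between cohorts, 2 passed in cohort 1, Cd44 was 0.062 over both cohorts, 0.20 in cohort 2 and 0.072 between cohorts, and the difference for Sox4 was -0.057. With array quality weights they numbered 982 in cohort 1, 1353 in cohort 2, 1293 for the difference and 1471 between cohorts, the adjusted counts were 1, 5, 1 and 31, and in cohort 2 Cd44 was 0.044 and Cspg4 0.11. Median centring gave -0.035 for Nes in cohort 2. In cohort 1 alone 1 gene passed. Replicate numbers did not pair the tumors (r of same-numbered deviations -0.19 to 0.38). With the replicate block, 1 gene passed in cohort 1, Olig1 was -0.75 (adjusted p = 0.598, limma), and no member passed adjustment. Over both cohorts, Sox2 reached an unadjusted limma p under 0.05 in 3 of 14 alternatives, the block, no filter on dim probes and no normalization. Sox4 did so in 4 of 14, these and the muscle score. Neither did in the fit with cohort as the only covariate. Under the block, Olig1 in cohort 2 no longer had an unadjusted p under 0.05.

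Leaving out 1 tumor at a time gave 371 (without MNF-treated tumor 5) to 783 genes at an unadjusted p under 0.05 over both cohorts, 298 (MNF-treated tumor 1) to 1138 (MNF-treated tumor 2) in cohort 1, 439 (vehicle-treated tumor 5) to 1535 (vehicle-treated tumor 6) in cohort 2, 462 (vehicle-treated tumor 3) to 1416 (vehicle-treated tumor 6) for the difference and 380 (MNF-treated tumor 3) to 1182 (vehicle-treated tumor 4) between cohorts. Adjusted counts ran from 0 to 1 in cohort 1 (vehicle-treated tumor 4), 0 to 171 in cohort 2 and 0 to 50 for the difference (both vehicle-treated tumor 6), and 0 to 46 between cohorts (vehicle-treated tumor 4). Over both cohorts, Sox2 had an unadjusted limma p under 0.05 in 1 of these 12 fits and Sox4 in 2. Over both cohorts Sox10 ran from -0.016 to 0.24, Nes from -0.041 to 0.19, Cd44 from -0.22 to 0.0063 and Cspg4 from -0.22 to 0.11. In cohort 1 Sox10 ran from -0.47 to 0.053, Nes from -0.11 to 0.39, Cd44 from -0.34 to 0.13 and Cspg4 from -0.43 to 0.30. In cohort 2 Nes ran from -0.25 to 0.26, Cd44 from -0.31 to 0.058 and Cspg4 from -0.27 to 0.26. The difference ran from -0.16 to 0.48 for Olig1 and from -0.13 to 0.47 for Sox4. The causes were not tested. Sox11 has no value here, since its probe was not above background.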
